A study of Mus musculus with 4 samples.

Results

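The genes described here encode the nuclear-encoded subunits of the mitochondrial respiratory chain and of ATP synthase, with a few assembly factors that share their symbols. They were chosen by symbol, with earlier results of these data known. The rule took every gene with a probe set of its own in the array annotation and a symbol with a given start. The starts were Ndufa, Ndufb, Ndufc, Ndufs, Ndufv, Sdh, Uqcr, Cox4 to Cox8 and Atp5. This gave 93 of the 22180 genes measured. Of these, 77 encode subunits, 12 are assembly factors named Ndufaf or Sdhaf, 2 are proteins related to cytochrome c oxidase (Cox7a2l and Ndufa4l2) and 2 are pseudogenes (Atp5c1-ps and Uqcrh-ps1). A further 9 symbols, among them Cox6c, Ndufb2, Ndufb4, Ndufs6 and Uqcr10, occurred only on probe sets shared with another gene and are not members.

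The cells were N9, an immortalised line of mouse microglia, and the study asks what dihydropyridines do to such cells. One group received vehicle (2 arrays), one 10 µM nimodipine (1 array) and one 20 µM nimodipine (1 array). Nimodipine is a dihydropyridine that blocks L-type calcium channels; the length of exposure and the vehicle are not given in the sources used here, and 1 cell line stands for microglia throughout. Whether the arrays came from separate cultures is not stated, so any p-value here rests on array-to-array spread alone, and that may be technical. The labels mention a respective vehicle for each dose but do not say which vehicle array goes with which dose, and both served as one group. The spread between the vehicle arrays may therefore include a difference between vehicles. Each dose had 1 array and therefore no replicate check.

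Values are deposited log2 expression after RMA, which sets the arrays to a common distribution and so hides any change common to the bulk of genes. Array medians ranged from 5.02 to 5.06, and 5.04, the median of all values, is used as the mark below which a probe set is called dim. Of 12 microglia and macrophage markers measured, 10 were at or above it, with Cd68 between 13.50 and 13.55 and Csf1r between 11.54 and 11.92, whereas the homeostatic markers P2ry12 and Tmem119 stayed below it on every array. Summed on the linear scale, these 12 markers gave 26089 and 26537 in vehicle, 26000.5 at 10 µM and 26468 at 20 µM, sums to which the brightest genes contribute most. At 10 µM 9 of the 12 stood below the vehicle mean, with a median difference of -0.13 and a lowest of -0.77, and at 20 µM 6 did, with a median of 0.02. The same sums for 6 astrocyte markers ran from 172 to 186, for 6 neuron markers from 234 to 266, for 5 oligodendrocyte markers from 310 to 371 and for 8 fibroblast and endothelial markers from 307 to 364. Dim on average were 4 of the 6 astrocyte, 3 of the 6 neuron, 1 of the 5 oligodendrocyte and 4 of the 8 fibroblast and endothelial markers. The mark alone thus did not set microglia markers apart from the others.

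The respiratory chain passes electrons from NADH, through complex I, and from succinate, through complex II, to coenzyme Q, complex III, cytochrome c and complex IV, where oxygen is reduced. Complexes I, III and IV pump protons, and ATP synthase uses the resulting gradient to make ATP. Complexes I, III and IV and ATP synthase combine subunits encoded in the nucleus with a few encoded by mitochondrial DNA, while complex II is wholly nuclear-encoded. Several small subunits of complex IV exist as a common form and a form typical of striated muscle, testis or lung. In microglia, the balance between oxidative phosphorylation and glycolysis is known to shift with activation.

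One member stood apart. Cox6a2, the heart and skeletal muscle form of subunit 6a of complex IV, had log2 values of 7.18 and 7.26 in vehicle, 10.75 at 10 µM and 7.33 at 20 µM. The 10 µM value was 3.52 above the vehicle mean, an 11.5-fold difference on the linear scale, while the 20 µM value was 0.11 above it and the vehicle arrays differed by 0.08. Cox6a2 had 1 probe set, so its 10 µM value rests on 1 probe set on 1 array. Cox6a2 was the only member whose difference from vehicle reached 1 in size on the log2 scale at 10 µM; over all genes 0.514% were higher and 1.06% were lower by that much. At 20 µM 0 of 93 members reached it, beside 0.0361% of all genes on the high side and 0.0496% on the low side.

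With both nimodipine arrays taken as one group, limma called 0 of 93 members higher and 0 lower after Benjamini-Hochberg adjustment over 22180 genes, and likewise 0% of all genes in either direction. At an unadjusted p under 0.05, 1 member was found, beside 5.37% of all genes. That member was Ndufa4l2, a hypoxia-induced relative of the complex IV subunit Ndufa4, with values of 4.60 and 4.33 in vehicle, 5.04 at 10 µM and 4.90 at 20 µM. It averaged 0.51 ± 0.15 (limma SE, 2 arrays per group) higher in nimodipine than in vehicle, but the probe set was dim and the adjusted p was 0.792. Cox6a2 itself differed by 1.82 ± 0.99 with the same adjusted p, its nimodipine arrays being far apart (10.75 and 7.33). In a fit of 3 groups, which sets 1 array against 2 and takes it to vary as the vehicle pair does, Cox6a2 was the 1 member called at 10 µM (limma adjusted p = 0.00286), beside 0.509% of all genes called higher and 1.08% called lower.

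Apart from Cox6a2, differences were small. The median difference of the 93 members at 10 µM was 0.12, with 63 above the vehicle mean and 30 below it, beside 52.4% and 47.6% of all genes, whose median was 0.01. Without vehicle 1 the median of the members at 10 µM was 0.064. The median at 20 µM was -0.04, with 43 above and 50 below, beside 49.3% and 50.7% of all genes. Dim genes were 8 of the 93 members but 9416 of all 22180 genes, so these shares do not compare genes of like brightness. Of the 12764 genes not dim on average, 48.3% were higher at 10 µM and 45.1% at 20 µM. For the 85 members not dim the shares were 65.9% and 45.9%. At 20 µM the members were thus close to genes that were not dim. Above both vehicle arrays at both doses stood 18 members, and below both stood 9, beside 19.2% and 18.2% of all genes. The vehicle arrays differed in the same genes by a median of 0.06, 63 being higher in vehicle 2 and 30 lower, beside 49.8% and 50% of all genes. A difference of 0.5 or more was reached at 10 µM by 4 members on the high side (Cox6a2, Uqcrq, Ndufa4l2 and Ndufa5) and by 2 on the low side (Uqcrh and Ndufv3), beside 3.92% and 6.18% of all genes. At 20 µM it was reached by Cox4i2 on the high side and by Atp5l and Sdhc on the low side, beside 1.45% and 1.29% of all genes. Just under that size at 10 µM stood Ndufa12 (0.50 when rounded) and Atp5j2 (0.48) on the high side and Ndufa11 (0.46) after them.

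**Figure D1:**
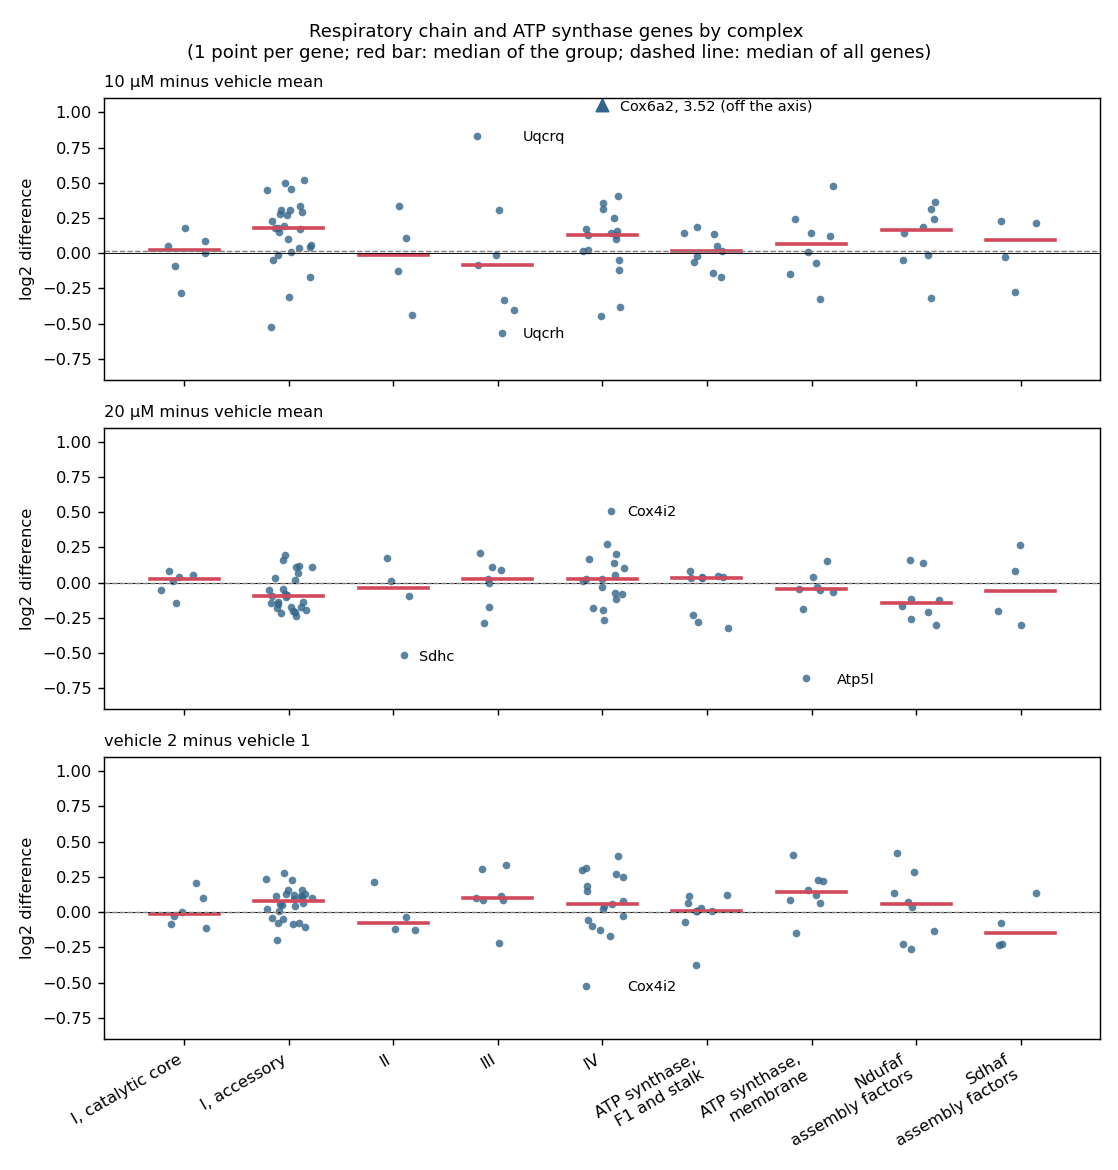
Log2 differences of the subunit and assembly factor genes by complex, 1 point per gene, for 10 µM minus the vehicle mean (top), 20 µM minus the vehicle mean (middle) and vehicle 2 minus vehicle 1 (bottom). Red bars are group medians and the dashed line is the median of all genes; Cox6a2, at 3.52, lies off the top axis and is drawn as a triangle. The accessory subunits of complex I centre on 0.18 at 10 µM and on -0.10 at 20 µM.

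Complex I, NADH dehydrogenase, is the largest group, with 32 subunit genes measured. Their median difference at 10 µM was 0.16, with 25 above the vehicle mean and 7 below it, and 0.10 without vehicle 1. Their median at 20 µM was -0.08, with 12 above and 20 below. Between the vehicle arrays the median was 0.06, and 22 of the 32 were higher in vehicle 2. The 10 µM array lay above both vehicle arrays for 19 of the 32 and below both for 6, beside 39.1% and 35.4% of all genes. The 20 µM array lay above both for 9 and below both for 19, beside 34.5% and 35.1%. Of the 12764 genes not dim, 4017 lay above both and 5139 below both at 20 µM. Set directly against each other, without the vehicle arrays, the 20 µM array was lower than the 10 µM array for 25 of 32, beside 49.9% of all genes.

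The catalytic core of complex I holds the flavin and the iron-sulfur clusters that carry electrons. The median difference of its 6 measured genes was 0.03 at each dose, and -0.02 at each without vehicle 1. Ndufv1, which binds NADH, stood at 9.10 and 9.07 in vehicle, 9.18 at 10 µM and 9.14 at 20 µM. Its partner Ndufv2 stood at 9.43 and 9.31 in vehicle, 9.55 at 10 µM and 9.22 at 20 µM, the highest of the core at 10 µM and the lowest at 20 µM relative to vehicle. Ndufs1, the largest subunit, was the lowest of the core at 10 µM, with 8.99 and 9.10 in vehicle, 8.76 at 10 µM and 9.05 at 20 µM. Ndufs3, Ndufs7 and Ndufs8, which complete the measured core, differed from vehicle by between -0.09 and 0.08 at the 2 doses. For Ndufs7 all 4 arrays lay between 10.48 and 10.52, the narrowest range of the 3.

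The 26 accessory subunits, which surround the core and are needed for its assembly and stability, gave a median difference of 0.18 at 10 µM, where 21 stood above the vehicle mean and 5 below. Their median at 20 µM was -0.10, with 8 above and 18 below. Whether core and accessory genes differ was not tested. Ndufa5 was highest at both doses, with 6.77 and 7.01 in vehicle, 7.41 at 10 µM and 7.09 at 20 µM. Ndufb9, in the membrane arm, stood at 11.32 and 11.24 in vehicle, 11.73 at 10 µM and 11.44 at 20 µM. Both genes lay above both vehicle arrays at both doses. Ndufs4, which joins late in assembly and whose loss causes Leigh-like disease in mice, stood at 8.13 and 8.18 in vehicle, 8.44 at 10 µM and 7.95 at 20 µM. Its 10 µM value was thus above, and its 20 µM value below, both vehicle values.

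Ndufc1 stood at 7.83 and 7.85 in vehicle, 8.07 at 10 µM and 7.62 at 20 µM, and Ndufb10 at 6.81 and 6.85, 7.12 and 6.63 in the same order. Each followed the course of Ndufs4. In the opposite direction, Ndufv3, a small subunit next to the NADH site, was the lowest at 10 µM, with 8.43 and 8.23 in vehicle, 7.80 at 10 µM and 8.12 at 20 µM. Ndufa1, which anchors early steps of membrane arm assembly, was the lowest at 20 µM, with 9.51 and 9.52 in vehicle, 9.34 at 10 µM and 9.27 at 20 µM. Ndufv3 and Ndufa1 were below both vehicle arrays at both doses. The limma adjusted p was 0.792 or more for each of these genes.

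Some complex I values depended on the probe set. Ndufa11 had 2 probe sets, of which the one used differed by 0.46 at 10 µM and the dimmer one by -0.47. For Ndufa12 both were higher at 10 µM, by 0.50 and 0.65, but at 20 µM they differed by -0.14 and 0.36. Ndufs5 had a dim probe set of its own that differed by -0.01 at 10 µM, while one shared with the pseudogene Ndufs5-ps differed by 0.65.

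**Figure D2:**
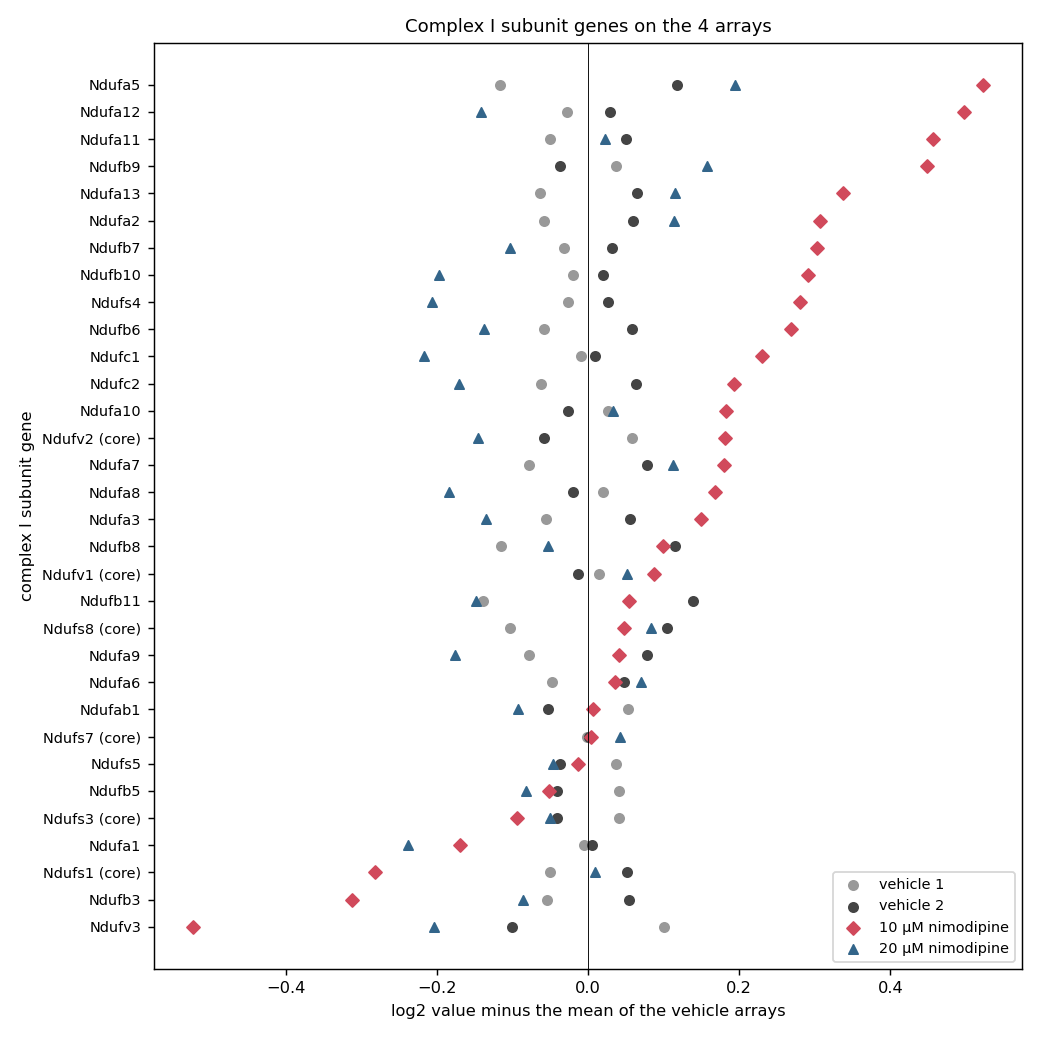
The 32 complex I subunit genes on the 4 arrays, each as its log2 value minus its own vehicle mean, ordered by the 10 µM array, with the catalytic core genes marked. The red diamonds (10 µM) lie right of the zero line for 25 genes and the blue triangles (20 µM) lie left of it for 20.

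The 12 assembly factors with Ndufaf and Sdhaf symbols, which build complexes I and II without being part of them, gave median differences of 0.16 at the lower dose, -0.14 at the higher one and -0.02 between vehicle arrays. Without vehicle 1 the medians were 0.076 at 10 µM and -0.088 at 20 µM. Of the 8 Ndufaf genes, Ndufaf8 was the highest at 10 µM, with 6.85 and 6.59 in vehicle, 7.09 at 10 µM and 6.61 at 20 µM. Ndufaf5, which hydroxylates Ndufs7, was the lowest at 20 µM, with 6.00 and 6.14 in vehicle, 6.39 at 10 µM and 5.77 at 20 µM. Ndufaf1, an early factor for the membrane arm, stood at 7.29 and 7.36 in vehicle, 7.00 at 10 µM and 7.06 at 20 µM, below both vehicle arrays at both doses, and was the lowest at 10 µM. Ndufaf3 was the highest at 20 µM, with a difference of 0.16, within the 0.28 between the vehicle arrays. Of the 4 Sdhaf genes, the largest differences were 0.23 for Sdhaf3 and -0.28 for Sdhaf4 at 10 µM and 0.27 for Sdhaf4 and -0.30 for Sdhaf1 at 20 µM, while the vehicle arrays of Sdhaf3 and Sdhaf4 differed by -0.23 each.

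Complex II, succinate dehydrogenase, belongs both to the tricarboxylic acid cycle and to the chain, and its 4 subunit genes did not move alike. Sdha, the flavoprotein that oxidises succinate, stood at 10.43 and 10.30 in vehicle, 10.24 at 10 µM and 10.54 at 20 µM. Sdhb, the iron-sulfur subunit, stood at 8.58 and 8.79 in vehicle, 9.02 at 10 µM and 8.59 at 20 µM. Sdha lay below both vehicle arrays at the lower dose and above both at the higher dose, whereas Sdhb lay above both at 10 µM and between them at 20 µM.

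Sdhc and Sdhd together form the membrane anchor that binds coenzyme Q. Sdhc stood at 10.11 and 9.99 in vehicle, 10.15 at 10 µM and 9.53 at 20 µM, a difference at 20 µM of -0.52 or 1.43-fold. Sdhd stood at 10.41 and 10.38 in vehicle, 9.96 at 10 µM and 10.41 at 20 µM. Sdhc was thus low on the 20 µM array and Sdhd on the 10 µM array.

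Complex III, which passes electrons from coenzyme Q to cytochrome c, had 7 measured genes. Their median difference was -0.09 at 10 µM, with 2 above the vehicle mean and 5 below, and 0.03 at 20 µM, with 4 above and 3 below; vehicle 2 lay a median of 0.10 above vehicle 1. At 10 µM the median was -0.13 without vehicle 1 and -0.04 without vehicle 2, and at 20 µM it was -0.06 and 0.07. Uqcrq, a small subunit beside cytochrome b, had the second highest difference of all members at 10 µM. It stood at 6.28 and 6.06 in vehicle, 7.00 at 10 µM and 6.28 at 20 µM, which is 0.83 or 1.78-fold above vehicle at 10 µM and 0.11 at 20 µM. The vehicle arrays of Uqcrq differed by -0.22.

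Uqcrh, the acidic hinge protein that helps cytochrome c dock, was the lowest member at 10 µM, with 9.17 and 9.48 in vehicle, 8.76 at 10 µM and 9.42 at 20 µM. Uqcrfs1, the Rieske iron-sulfur protein, stood at 7.57 and 7.69 in vehicle, 7.23 at 10 µM and 7.46 at 20 µM, below both vehicle arrays at both doses. Uqcrb, a small matrix-side subunit, lay above both vehicle arrays at both doses, with 10.75 and 10.83 in vehicle, 11.10 at 10 µM and 11.00 at 20 µM. A dimmer probe set that Uqcrb shares with Gm10767 differed by 0.64 at 10 µM but by -0.40 at 20 µM. The core proteins Uqcrc1 and Uqcrc2 differed by -0.01 and -0.09 at 10 µM and by -0.29 and 0.03 at 20 µM. The pseudogene Uqcrh-ps1 was dim on every array.

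Complex IV, cytochrome c oxidase, had 17 measured subunit genes, of which 13 stood above the vehicle mean at 10 µM and 4 below. Without Cox6a2 these were 12 and 4, and the median differences were 0.13 at the lower dose, 0.02 at the higher one and 0.05 for vehicle 2 over vehicle 1. Without vehicle 1 the median of these 16 genes at 10 µM was 0.083. Cox5b, which is nuclear-encoded and binds zinc, was the next highest at 10 µM, with 9.50 and 9.64 in vehicle, 9.98 at 10 µM and 9.50 at 20 µM. A second, dimmer probe set of Cox5b differed by 0.05 at 10 µM and -0.38 at 20 µM. Cox7c was the lowest at both doses, with 5.26 and 5.66 in vehicle, 5.01 at 10 µM and 5.19 at 20 µM, close to the median of all values. Ndufa4, first assigned to complex I and now counted in complex IV, stood at 10.00 and 10.02 in vehicle, 10.37 at 10 µM and 9.90 at 20 µM. Ndufa4 was thus above both vehicle arrays at the lower dose and below both at the higher dose.

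Among the isoform pairs of complex IV, Cox6a2 and Cox6a1 were the only ones whose differences from vehicle were 1 or more apart. Cox6a1, the form found in most tissues, stood at 13.21 and 13.18 in vehicle, 13.21 at 10 µM and 13.00 at 20 µM. Levels of different probe sets were not set against each other, so only the change of their difference between arrays is given. The signed log2 value of Cox6a2 minus Cox6a1 was higher than in vehicle by 3.51 at 10 µM and by 0.30 at 20 µM. It differed by 0.11 between the vehicle arrays. For nimodipine against vehicle it was higher by 1.903 on average, with p = 0.333 in a two-sided exact permutation test, which is the smallest p that 2 arrays against 2 can give.

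Neither of the other muscle forms measured differed by 1 or more. Cox7a1, of heart and skeletal muscle, stood at 6.68 and 6.51 in vehicle, 6.21 at 10 µM and 6.65 at 20 µM, and its common partner Cox7a2 at 9.80 and 10.07, 9.81 and 9.75. Cox8b, also a muscle form, stayed between 4.14 and 4.39 on the 4 arrays, below the median of all values, while Cox8a stayed between 11.84 and 11.99. Cox7a1 was below both vehicle arrays at 10 µM, and Cox8b differed by 0.17 at that dose.

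Testis forms and lung forms gave no difference of 1 either. Cox6b2, a testis form, stood at 4.79 and 4.84 in vehicle, 5.06 at 10 µM and 5.09 at 20 µM, around the median of all values, and its partner Cox6b1 differed by -0.05 at 10 µM and 0.20 at 20 µM. Cox7b2 and Cox8c were dim on all arrays and differed by 0.14 and 0.02 at 10 µM, beside 0.31 for Cox7b and 0.13 for Cox8a. Cox4i2, a lung form that hypoxia induces, stood at 5.50 and 4.98 in vehicle, 5.40 at 10 µM and 5.75 at 20 µM. Its 20 µM difference of 0.51 was no larger than the 0.52 between its vehicle arrays, and Cox4i1 differed by 0.13 at 10 µM and 0.01 at 20 µM. Cox7a2l, which links complexes III and IV into supercomplexes, differed by 0.12 and 0.04.

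**Figure D3:**
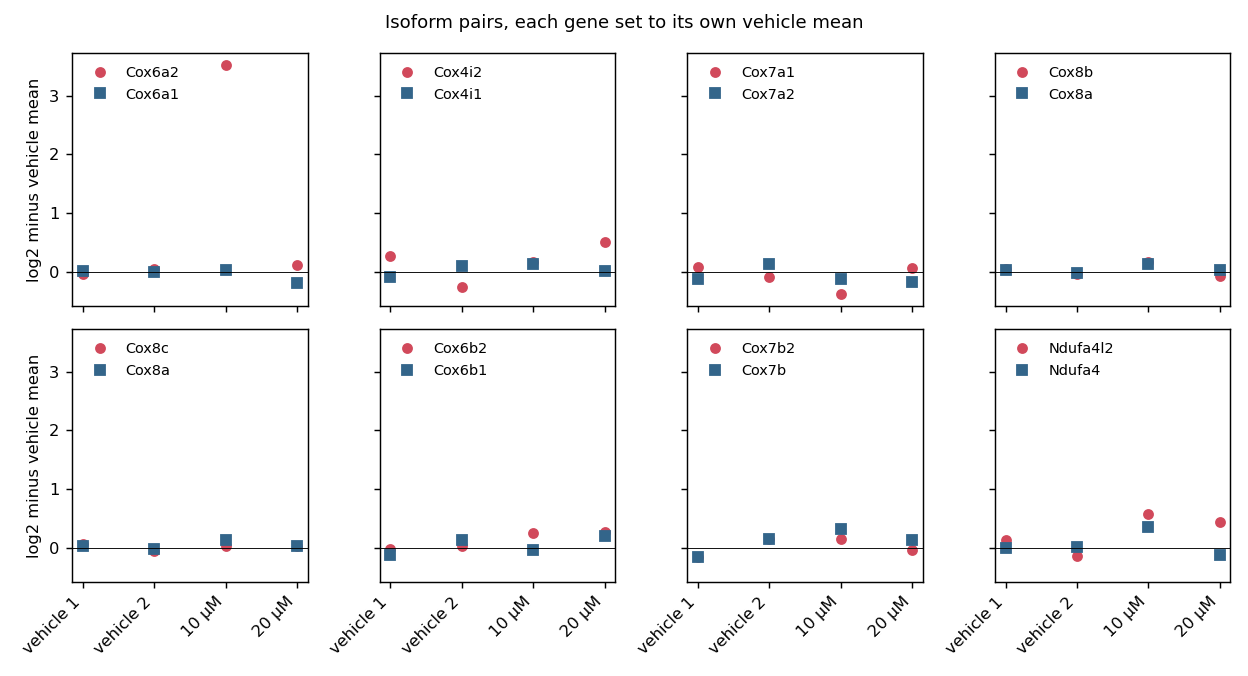
Log2 values of 8 isoform pairs on the 4 arrays, each gene set to its own vehicle mean, with the tissue form as red circles and the common form as blue squares. Cox6a2 at 10 µM, 3.52 above its vehicle mean, is the only point above 1; Ndufa4l2 lies 0.58 above its own at 10 µM and 0.43 at 20 µM.

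Since Cox6a2 is a striated muscle gene, 27 markers of that tissue were set beside it. None differed by 1 or more at 10 µM, their median difference was 0.04 and their range -0.18 to 0.75, with Myl3 (0.75) and Myog (0.68) highest and Acta1 (0.47) next. Of the 27, 19 were higher than vehicle at 10 µM and 18 at 20 µM, beside 52.4% and 49.3% of all genes. Among the markers, 9 were dim. Their summed linear level was 1294.5 and 1321 in vehicle, 1444 at 10 µM and 1404 at 20 µM. Myh1, Myh2, Myh4 and Myh7, all among the 9 dim markers, stayed below the median of all values on every array, whereas most of the 27 were not dim.

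ATP synthase had 17 measured subunit genes, whose median differences were 0.02 at the lower dose, -0.03 at the higher one and 0.07 for vehicle 2 over vehicle 1. The median at 20 µM was 0.03 without vehicle 2. Atp5b, the catalytic beta subunit, stood at 12.45 and 12.46 in vehicle, 12.39 at 10 µM and 12.50 at 20 µM. Atp5a1, the alpha subunit, stood at 11.43 and 11.44 in vehicle, 11.27 at 10 µM and 11.46 at 20 µM, and was the lowest of the F1 and stalk genes at 10 µM.

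Among the 9 genes of the F1 head and the stalks, Atp5pb, of the peripheral stalk, was highest at 10 µM, with a difference of 0.19. Atp5c1, the rotating gamma subunit, was highest at 20 µM, with 0.08. Atp5j, also of the peripheral stalk, was lowest at 20 µM, with 7.26 and 7.19 in vehicle, 7.37 at 10 µM and 6.91 at 20 µM. Atp5h and Atp5o, of the same stalk, were lower at 20 µM too, by -0.28 and -0.23, but the vehicle arrays of Atp5o differed by -0.38. A second, dimmer probe set of Atp5h differed by -0.17 at 10 µM where the one used differed by 0.05. Its vehicle arrays were 0.57 apart, and at 20 µM it was lower too, by -0.20. The pseudogene Atp5c1-ps was dim on every array.

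In the membrane part, Atp5l, the g subunit that takes part in joining the enzyme into dimers, had the lowest value of any member at 20 µM relative to vehicle. It stood at 10.77 and 11.00 in vehicle, 11.03 at 10 µM and 10.21 at 20 µM, a difference of -0.68 or 1.60-fold. Atp5k or subunit e, another dimer subunit, stood at 8.97 and 9.08 in vehicle, 9.15 at 10 µM and 8.96 at 20 µM. Atp5j2, subunit f, was highest of this part at 10 µM, with 4.77 and 5.18 in vehicle, 5.45 at 10 µM and 4.93 at 20 µM, a spread in which the vehicle arrays alone differed by 0.40.

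The genes Atp5g1, Atp5g2 and Atp5g3 encode the same mature subunit c of the rotor ring behind different import sequences. Atp5g3 was the lowest of the membrane genes at 10 µM, with 9.12 and 8.98 in vehicle, 8.73 at 10 µM and 8.86 at 20 µM. Atp5g1 was the highest of them at 20 µM, with 5.52 and 5.74 in vehicle, 5.87 at 10 µM and 5.78 at 20 µM. Atp5g2 differed by -0.15 at 10 µM and 0.04 at 20 µM. Atp5g1 was thus above both vehicle arrays at both doses and Atp5g3 below both.

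Many promoters of these genes are known to carry sites for NRF1, a transcription factor of mitochondrial biogenesis. RefSeq promoter windows (GRCm38.p6, 250 bases before to 50 after the start, used for their sequence only) were matched to 76 of the 93 members, which do not include Cox6a2, Uqcrq or Ndufb9. The core of the NRF1 site, GCATGCGC, or its reverse complement GCGCATGC, was found in 12 of the 76, or 15.8%, beside 3.05% of all 27025 genes with a window. In 7 of the 12 both overlap in the palindrome GCGCATGCGC. The site CCGGAAGT of ETS factors such as GABP was found in 5 of the 76, or 6.58%, beside 4.31% of all genes. The letters TGATGNAA, the composite site of C/EBP and ATF factors, were found in 0 of 76, beside 4.51% of all genes. Each motif was searched on both strands. The shares over all genes were not limited to genes measured here or to bright ones. Whether a motif is more frequent in members than in genes of like brightness was not tested. The 12 NRF1 stretches are shown, 5′ to 3′ on the gene's strand with the motif in capitals, because they are a sequence feature that the choice of members by symbol did not use.
Atp5g2, chr15:102671071-102671100, minus strand: tggctccggccGCGCATGCGCagagccttc
Atp5k, chr5:108434431-108434460, minus strand: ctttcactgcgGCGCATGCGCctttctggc
Atp5l, chr9:44920963-44920992, minus strand: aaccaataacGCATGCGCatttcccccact
Cox6a1, chr5:115349102-115349131, minus strand: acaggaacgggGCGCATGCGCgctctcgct
Ndufa11, chr17:56717691-56717720, plus strand: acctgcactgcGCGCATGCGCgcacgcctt
Ndufa6, chr15:82354356-82354385, minus strand: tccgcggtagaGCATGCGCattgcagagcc
Ndufa8, chr2:36049328-36049357, minus strand: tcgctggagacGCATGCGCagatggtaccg
Ndufaf4, chr4:24897959-24897988, plus strand: cccagatgtctGCGCATGCGCctgtgcgga
Ndufaf5, chr2:140170651-140170680, plus strand: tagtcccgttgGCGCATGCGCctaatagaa
Sdhb, chr4:140961206-140961235, plus strand: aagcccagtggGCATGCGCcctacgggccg
Uqcr11, chr10:80406807-80406836, minus strand: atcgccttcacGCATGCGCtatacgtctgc
Uqcrc1, chr9:108936667-108936696, plus strand: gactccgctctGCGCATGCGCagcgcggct

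The 12 genes with these letters had a median difference of 0.13 at 10 µM, ranging from -0.33 (Uqcr11) to 0.46 (Ndufa11), with 9 of 12 higher. The 64 without them had a median of 0.09, with 41 higher. At 20 µM the medians were -0.11 and -0.05. Both sets had higher medians at 10 µM than at 20 µM, as the 93 members did.

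Outside the nuclear-encoded members, 10 subunits encoded by mitochondrial DNA were measured, and 9 of them differed by between -0.05 and 0.13 at 10 µM. The exception was ND3, of complex I, with 13.07 and 13.10 in vehicle, 12.37 at 10 µM and 13.00 at 20 µM, a difference at 10 µM of -0.71. ND4, the highest at 10 µM, and COX1, of complex IV, differed by 0.13 and 0.11 at that dose and by 0.04 and 0.08 at 20 µM. Of the 4 genes of the cytochrome c list, Cycs, which encodes somatic cytochrome c, was above both vehicle arrays at both doses, with 10.61 and 10.68 in vehicle, 11.07 at 10 µM and 11.16 at 20 µM. Hccs, which attaches its heme, differed by -0.36 and 0.04, and Cyc1, of complex III, by 0.23 and -0.01, while the testis form Cyct was dim.

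Assembly factors with other symbols (36 measured) gave median differences of 0.01 at the lower dose and -0.07 at the higher one. At 20 µM 27 of the 36 were lower, beside 50.7% of all genes and 7007 of the 12764 genes not dim. Uqcc3, an assembly factor of complex III, was lowest, with 8.25 and 8.07 in vehicle, 7.65 at 10 µM and 7.69 at 20 µM. Cox15, which makes heme a, differed by -0.50 at 10 µM and Atpaf2, which builds the F1 head, by 0.49. The 12 genes of coenzyme Q synthesis gave medians of -0.03 at 10 µM and -0.02 at 20 µM. Coq8a, an atypical kinase of that pathway, stood at 7.50 and 7.43 in vehicle, 6.56 at 10 µM and 7.48 at 20 µM, while Coq4 and Coq2 were higher by 0.53 and 0.49 at 10 µM.

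The 13 genes of the tricarboxylic acid cycle gave medians of -0.04 at 10 µM and -0.01 at 20 µM. Fh1, fumarase, differed by -0.43 at 10 µM and Dlst, of the 2-oxoglutarate dehydrogenase complex, by -0.27 at 10 µM and 0.54 at 20 µM, while Idh3g, of isocitrate dehydrogenase, differed by -0.21 at 10 µM. Of 16 regulators of mitochondrial biogenesis, 13 were lower at 10 µM and 7 at 20 µM, beside 47.6% and 50.7% of all genes. Of the 12764 genes not dim, 6597 were lower at 10 µM and 7007 at 20 µM. The medians of the 16 were -0.15 and 0.00. Tfb2m, a mitochondrial transcription factor, stood at 7.89 and 8.06 in vehicle, 7.16 at 10 µM and 7.68 at 20 µM. Twnk, the mitochondrial DNA helicase, differed by -0.73 and the coactivator Ppargc1b by -0.71 at 10 µM. The factors Nrf1 and Gabpa differed by 0.03 and -0.12. With both nimodipine arrays against vehicle, limma called 0 genes of each list outside the members, markers included, at the adjusted threshold. At an unadjusted p under 0.05 it found 3 regulators, 2 assembly factors, 2 oxygen-linked genes, 1 gene of the cytochrome c list, 2 striated muscle markers, 1 astrocyte marker and 1 neuron marker, beside 5.37% of all genes.

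The largest differences around the chain lay in 5 genes that tie mitochondria to oxygen supply, of which 3 were lower by 1 or more at 10 µM, beside 1.06% of all genes. The list was chosen with earlier results of these data known, so counts from it describe these genes and support no claim about the list. In the fit of 3 groups limma called 3 of the 5 lower at 10 µM, beside 1.08% of all genes. Bnip3, a mitophagy receptor, stood at 10.82 and 10.42 in vehicle, 9.07 at 10 µM and 10.30 at 20 µM, and Pdk1, which restrains pyruvate entry, at 9.21 and 9.02, 7.84 and 8.76. Egln3, an oxygen-sensing hydroxylase, stood at 8.35 and 8.91 in vehicle, 4.79 at 10 µM, under the median of all values, and 8.45 at 20 µM. Lonp1, a matrix protease, was the one that was higher, with 9.58 and 9.65 in vehicle, 10.38 at 10 µM and 9.97 at 20 µM. The median difference of the 5 genes was -1.28 at 10 µM and -0.32 at 20 µM, against medians of 0.12 and -0.04 for the 93 members.

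**Figure D4:**
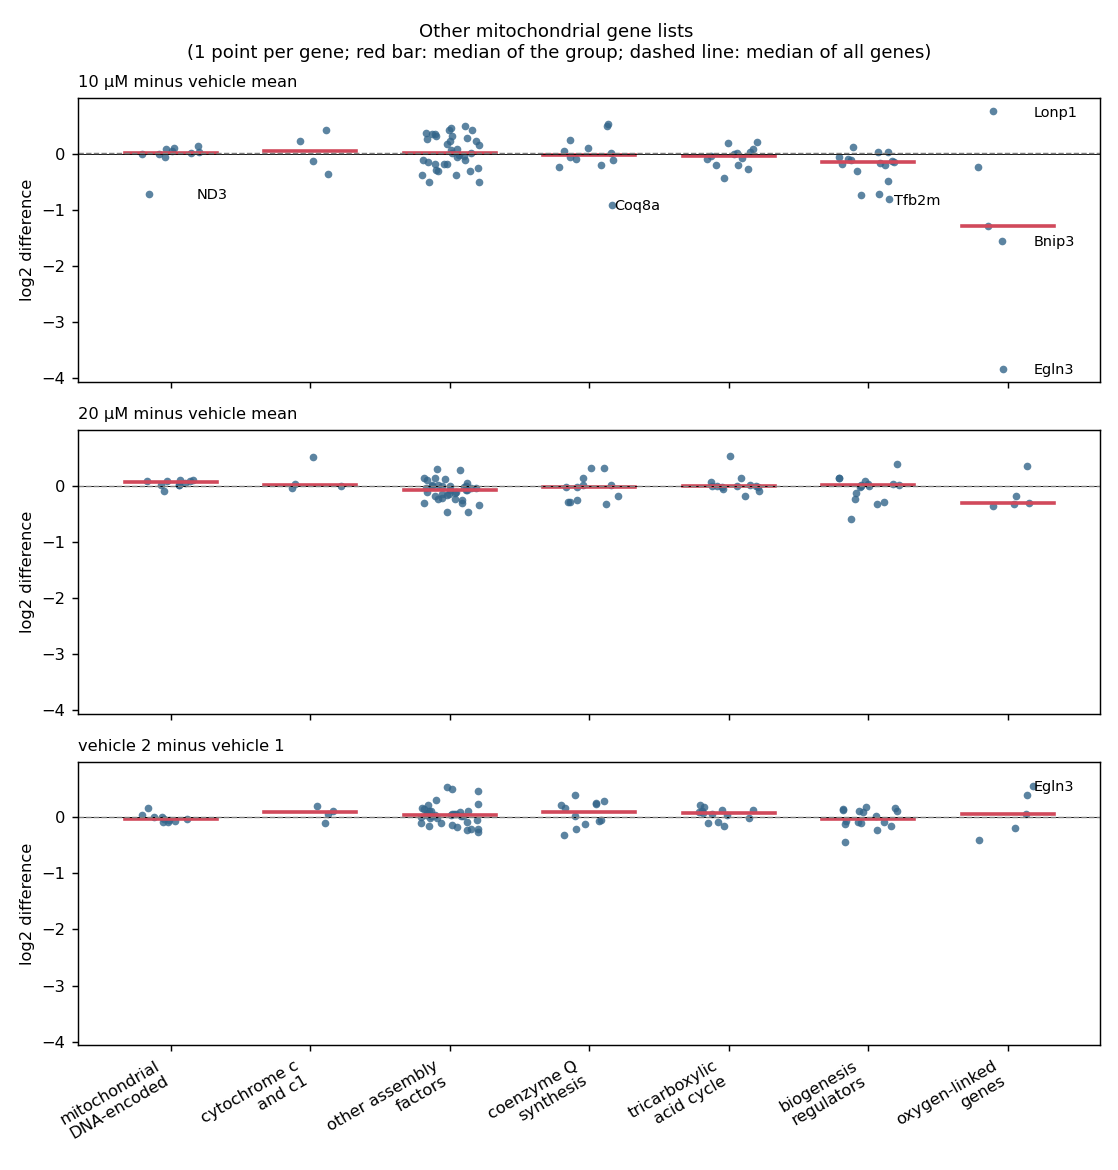
Log2 differences of 7 further mitochondrial gene lists, 1 point per gene, for 10 µM minus the vehicle mean (top), 20 µM minus the vehicle mean (middle) and vehicle 2 minus vehicle 1 (bottom), with red bars at list medians and a dashed line at the median of all genes. Only the oxygen-linked genes have points beyond 1, namely Egln3 at -3.84, Bnip3 at -1.55 and Pdk1 at -1.28 on the 10 µM array.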

How the data were processed

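Total RNA of 4 N9 samples was hybridised to 1 Affymetrix array each. The table deposited by the authors holds log2 values, 1 for each probe set and array. RMA and Expression Console 1.2.1.20 are named in the submitters' processing notes. The platform annotation gave exactly 1 symbol to 23521 of 41345 probe sets, and each of 22180 genes is represented by its brightest probe set on average. The deposited table has no detection call, so differences of dim probe sets can be too small, and levels of single genes were not compared with each other. Sums over a marker list serve to compare arrays within that list. Nimodipine (2 arrays) was compared with vehicle (2 arrays) by limma 3.58.1 in R 4.3.3 (lmFit and eBayes). Benjamini-Hochberg adjustment ran over all genes, with a threshold of 0.05. In simulated data 200 genes were shifted alike on both nimodipine arrays. A log2 shift of 1 was recovered for 94.5% of them, with 22 false calls, and a shift of 4 for 100%, with 27. At both shifts the false calls were a larger share of all calls than the threshold of 0.05. The simulated spread of each gene was limma's moderated estimate, which is drawn toward a common value, so recovery in the data can be lower. The simulation has no difference between the doses, so it cannot vouch for genes that differ between them. Differences at single doses were not tested in the comparison of nimodipine with vehicle. Precision is limited by how few arrays there are.

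The members and the gene lists were chosen with earlier results of these data known. Named genes are those past a difference of 1, the highest and lowest of each group at each dose, the isoform pairs, the complex I core, complex II, the alpha and beta subunits, and up to 3 genes of each other list by size at 10 µM; Ndufs4, Ndufb9, Ndufc1, Ndufb10, Cox7a2l, those quoted for disagreeing probe sets and others named beside these were added after their values were seen.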

Additional observations from a re-analysis of the deposited data

Results flagged for a closer look

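The single 20 µM array was lower than the single 10 µM array for Cox6a2, with a log2 difference of -3.42 for 20 µM minus 10 µM. The fit of 3 groups that gave its limma adjusted p of 0.00701 has 1 residual degree of freedom and takes the spread of each lone array from the vehicle arrays, so dose and array cannot be told apart. It was the only one of the 93 members called in that contrast, beside 0.144% of all genes lower at 20 µM and 0.171% higher. Egln3 was called in the same contrast in the other direction, with the 20 µM array 3.66 above the 10 µM array (limma adjusted p = 0.0218).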

How the results depend on the processing

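The number of members called for nimodipine against vehicle was 0 with probe sets averaged per gene, dim genes left out, cyclic loess, equal array medians, eBayes with a trend or robust, dose as a number, subunits only or an adjusted threshold of 0.1. It was 1, Cox6a2, for 10 µM against vehicle in a fit of 3 groups (limma adjusted p = 0.00286), which takes the spread of lone arrays from the vehicle arrays, and 0 for 20 µM. Leaving out each array in turn gave 0 to 1, the 1 being Cox6a2 without the 20 µM array. The median difference at 10 µM was 0.064 without vehicle 1 and 0.12 without vehicle 2, and between 0.10 and 0.13 otherwise. At 20 µM it was -0.10 with equal array medians and ranged from -0.04 without vehicle 1 to 0.00 without vehicle 2. At a size of 0.5 in place of 1, 6 members were past it at 10 µM and 3 at 20 µM. The difference of Cox6a2 minus Cox6a1, nimodipine over vehicle, ranged from 0.30 without the 10 µM array to 3.51 without the 20 µM array. In alternatives chosen after seeing the data, the number of complex I subunits higher at 10 µM ranged from 21 (without vehicle 1) to 26, and at 20 µM it was 7 of 32 with equal array medians. Ndufa11 at 10 µM differed by -0.01 when its probe sets were averaged, and Ndufa12 at 20 µM by 0.11. Small medians changed sign. Without vehicle 1 the complex I core stood at -0.02 at both doses, complex II at 0.05 at 10 µM, and complexes III and IV at -0.06 and -0.02 at 20 µM. Without vehicle 2, ATP synthase at 20 µM stood at 0.034 and complex II at 0.0048. With equal array medians the core stood at -0.00066 at 10 µM and -0.031 at 20 µM, complexes III and IV at -0.031 and -0.032 at 20 µM, and ATP synthase at -0.009 at 10 µM. Cyclic loess put complex II at 0.015 and 0.0053. The cause of these shifts was not tested. No paired analysis was possible because the labels do not say which vehicle array goes with which dose.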
